A study of Mus musculus with 8 samples.

Results

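The response of the liver to an alcohol diet was examined in mice that lack Elf4 in the intestine. Elf4 encodes a transcription factor of the ETS family, and the deletion was made with Cre recombinase under the villin promoter, which is active in intestinal epithelium, so the liver itself was not the target of the deletion. The mice were C57BL/6 males, 6 weeks old at the start and 9 weeks old at sampling. They received a Lieber-DeCarli liquid diet for 21 days, with 5% (w/v) alcohol in the Elf4-/--EtOH group or with isocaloric maltose dextrin in the Elf4-/--Control group. Both groups hold 2 liver libraries, which are 4 of the 8 libraries of the series. The other 4 libraries are WT-Control and WT-EtOH, on the same diets, and WT mice carried Cre as well. Nothing in the labels says whether a library came from 1 animal or from pooled animals, so the p-values measure the spread between these libraries. Where single livers are named below, each stands for the sample of 1 library. All genes with enough counts were compared, 13993 of the 19267 genes in the table, and expression is given as CPM, the read count after scaling to a common library size.

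Ethanol is oxidised in hepatocytes by alcohol dehydrogenases, by catalase and by the cytochrome P450 Cyp2e1, and acetaldehyde is cleared by aldehyde dehydrogenases. Chronic alcohol feeding is known for fat accumulation in the liver, for induction of drug-metabolising and antioxidant enzymes and for inflammation. The liver is also among the organs with the strongest sex differences in gene expression, which follow the pattern of growth hormone secretion through the factors STAT5, BCL6 and CUX2.

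Total counts ran from 6585347 to 9157362 in the 4 libraries of Elf4-/- mice. Elf4 itself was low in the liver, at 1.23 and 0.895 CPM in Elf4-/--Control and 2.23 and 4.51 CPM in Elf4-/--EtOH, and checks the genotype labels only weakly because the deletion was in another organ. Of 10 hepatocyte markers, all 10 were tested and their summed level was 72430 and 80650 CPM in Elf4-/--Control and 54480 and 65660 CPM in Elf4-/--EtOH. Elf4-/--EtOH replicate 1 stood apart from the other libraries along the second principal component of log2 CPM. The replicates of Elf4-/--EtOH differed from each other with an SD of 0.687 on the log2 scale against 0.363 for Elf4-/--Control, and among 9468 well counted genes (mean of 50 counts or more) 167 lay 4-fold or further apart between the 2 Elf4-/--EtOH livers against 14 between the 2 Elf4-/--Control livers.

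With the alcohol diet, 239 genes rose in Elf4-/- livers, which is 1.71% of the genes tested, and 165 genes fell, which is 1.18% (edgeR, quasi-likelihood, at an adjusted p under 0.05 with all genes tested together). The changes were large. Of the 404 genes, 356 changed at least 2-fold and 130 at least 4-fold, and the CPM values of the 2 groups did not overlap in any of them, as was the case for 52.2% of all genes tested. The median log2 fold change was 1.56 among genes that rose and −1.41 among genes that fell, against 0.01 over all genes. The number of genes called depended on single libraries. Without Elf4-/--EtOH replicate 1, 125 genes were called higher and 95 lower, and 163 of the 404 genes were among them, whereas without replicate 2 there were 824 and 859, with 393 of the 404 among them. Without Elf4-/--Control replicate 1 or replicate 2, 20 and 9 genes were called in all, and without WT-EtOH replicate 1 or replicate 2, 134 and 135. A fit of only the 4 libraries of this genotype called 22 higher and 18 lower. The sign of all 404 genes was kept in each of these fits. Since their groups did not overlap, leaving out a library could hardly have changed a sign, so this is no check on them. Of the gene lists below, those that kept a called member without Elf4-/--Control replicate 1 were the male-biased and female-biased genes, the major urinary proteins, the CAR and PXR targets, the acyl-CoA thioesterases and the peroxisomal and Cyp4a genes, and all of these but the last kept one without replicate 2. No other list did in either fit. These lists share members, since Cyp2b9 and Acot3 are also female-biased genes and Mup7 is also a male-biased gene. At an unadjusted p under 0.05 in edgeR there were 21.2% of all genes, the background for the unadjusted counts given for lists, and 50.9% of all genes had higher fitted values under EtOH.

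**Figure D1:**
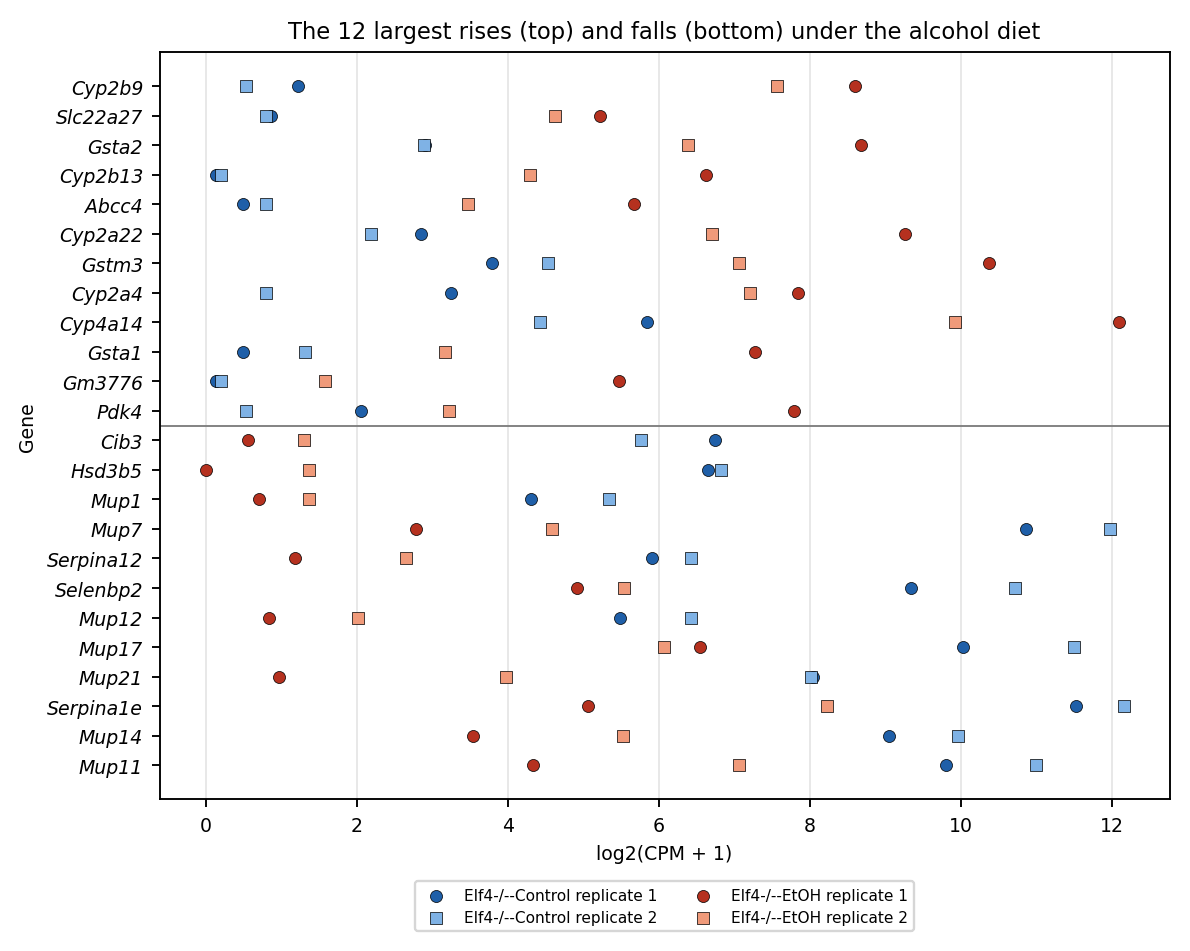
The 12 largest rises (top) and the 12 largest falls (bottom) by log2 fold change, as log2(CPM + 1) in each library. Only called genes with a mean of 50 counts or more and no overlap between the groups were ranked. Blue marks stand for Elf4-/--Control, red marks for Elf4-/--EtOH, circles for replicate 1 and squares for replicate 2. The lack of overlap in the 24 genes follows from how they were chosen. Elf4-/--EtOH replicate 1 lies further from the controls than replicate 2 in all of them but Mup17.

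Genes whose expression differs between male and female liver held many of the largest changes. These lists and those below were chosen with earlier results of these data known, so their counts and medians are a description and not a test. Of 27 tested male-biased genes, 11 fell and none rose (median log2 fold change −1.92), and of 23 tested female-biased genes, 10 rose and none fell (median 2.55). All 23 female-biased genes had higher fitted values under EtOH, and all 23 had an unadjusted p under 0.05 in edgeR. Not all of them were higher in both EtOH livers. Cyp17a1 stood at 6.87 and 16.0 CPM in Elf4-/--Control and at 122 and 3.58 CPM in Elf4-/--EtOH, so its higher value rested on replicate 1. When Elf4-/--EtOH replicate 1 was left out, 13 male-biased genes were called lower and 7 female-biased genes higher, and the medians were −1.42 and 1.21. Without Elf4-/--Control replicate 1, 4 male-biased genes and 3 female-biased genes were called, and without replicate 2, 2 and 3.

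Among the female-biased genes, Cyp2b9, a cytochrome P450 (chromosome 7, 26173411 to 26210661, plus strand), stood at 1.33 and 0.448 CPM in Elf4-/--Control and at 388 and 188 CPM in Elf4-/--EtOH. Its log2 fold change was 8.22 ± 0.58 (SE), with an edgeR adjusted p of 0.000714, and ranged from 7.60 to 9.27 when single libraries were left out. Slc22a27, an organic anion transporter (chromosome 19, 7864388 to 7966027, minus strand), rose from 0.820 and 0.746 to 36.3 and 23.6 CPM, and the neighbouring Slc22a26 rose from 0.922 and 1.34 to 44.1 and 27.9 CPM. Both EtOH livers were far above both controls for these 3 genes. Cyp2b13 had 1 count in each Elf4-/--Control library against 97.4 and 18.6 CPM in Elf4-/--EtOH, and was at least 159-fold higher against a floor of 3 counts per library, or at least 50.96-fold without Elf4-/--EtOH replicate 1 and at least 267-fold without replicate 2. Cyp2a22 rose from 6.25 and 3.58 to 613 and 103 CPM and Cyp2a4, a steroid hydroxylase, from 8.51 and 0.746 to 228 and 147 CPM. The pair differ in which library carries the spread, which was Elf4-/--EtOH replicate 1 for Cyp2a22 (log2 fold change 4.35 without it, against 6.16) and Elf4-/--Control replicate 1 for Cyp2a4 (7.93 without it, against 5.26).

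The male-biased genes moved the opposite way. Hsd3b5, a 3-ketosteroid reductase of male liver (chromosome 3, 98618634 to 98630252, minus strand), stood at 99.3 and 112 CPM in Elf4-/--Control and at 0 and 1.59 CPM in Elf4-/--EtOH, which is −6.92 ± 0.65 (SE) as a log2 fold change, at an adjusted p of 0.00197 in edgeR. Leaving out Elf4-/--EtOH replicate 1 gave a log2 fold change of −6.04, and with replicate 2 left out the gene was at least 221-fold lower. Cib3, which encodes a calcium-binding protein (chromosome 8, 72204335 to 72212837, minus strand), fell from 106 and 53.5 to 0.478 and 1.46 CPM. Selenbp2 fell from 645 and 1679 to 29.3 and 45.6 CPM and C6, a terminal complement component, from 120 and 144 to 11.8 and 29.1 CPM. Slco1a1, a bile acid and organic anion uptake transporter, fell from 301 and 424 to 40.6 and 107 CPM, and Cyp2u1 from 65.5 and 63.4 to 4.46 and 17.2 CPM. Ugt2b38, a glucuronosyltransferase, fell from 28.9 and 19.2 to 0 and 3.58 CPM. With single libraries left out, the log2 fold change ranged from −7.36 to −5.72 for Cib3, from −5.49 to −4.10 for Selenbp2, from −3.50 to −2.19 for C6, from −3.17 to −1.76 for Slco1a1 and from −3.87 to −1.90 for Cyp2u1. It was −2.75 for Ugt2b38 without Elf4-/--EtOH replicate 1, and without replicate 2 this gene was at least 50.3-fold lower. One male-biased gene pointed the other way without passing the test, Ces2c, at 2.36 and 1.19 CPM in the controls and 85.1 and 9.02 CPM under EtOH (edgeR adjusted p = 0.0523).

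The major urinary proteins, pheromone carriers that male liver secretes in large amounts, were lower in part. Of 20 tested Mup genes, 10 fell and none rose (median log2 fold change −3.29), and 3 of these genes are also in the male-biased list. Mup20 fell from 3841 and 4532 to 182 and 867 CPM, which is −3.00 ± 0.59 (SE) as a log2 fold change, at an adjusted p of 0.0318 in edgeR. Mup7 went from 1855 and 4014 CPM to 5.90 and 22.9 CPM, Mup17 from 1043 and 2879 to 92.1 and 65.8 CPM, and Mup21 from 262 and 257 to 0.956 and 14.7 CPM. With single libraries left out, the log2 fold change ranged from −4.55 to −2.27 for Mup20, from −8.97 to −7.00 for Mup7, from −5.19 to −3.72 for Mup17 and from −8.08 to −4.14 for Mup21. The 2 control livers themselves differed by over 2-fold in Mup7, Mup17 and Selenbp2, always with replicate 2 higher. Mup genes lie in 1 cluster on chromosome 4 and are nearly identical in sequence, so the division of reads among members is uncertain and the family is better read as a whole. When Elf4-/--EtOH replicate 1 was left out, 7 Mup genes were called lower, and without Elf4-/--Control replicate 1 or replicate 2, 4 and 1 were.

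Regulators of the sex-biased program were measured alongside. Bcl6, a repressor that is higher in male liver and acts on female-biased genes (chromosome 16, 23965052 to 23988852, minus strand), fell from 162 and 190 to 57.5 and 25.7 CPM, which is −2.08 ± 0.37 (SE) as a log2 fold change, at an adjusted p of 0.0254 in edgeR. Without Elf4-/--EtOH replicate 1 the value was −2.77, and without either Elf4-/--Control library the gene was not called. It was the only one of 20 tested genes of the growth hormone and IGF axis that passed. Cux2, an activator of female-biased genes, stood at 1.54 and 0.895 CPM in the controls and at 50.05 and 2.39 CPM under EtOH, and did not pass (edgeR adjusted p = 0.0783). Its value was set by Elf4-/--EtOH replicate 1, with a log2 fold change of 4.35 against 0.92 without that library. The direct growth hormone targets Socs2 and Cish were instead high in replicate 2, with 13.4 and 28.8 CPM for Socs2 and 4.62 and 41.5 CPM for Cish, where the controls stood at 11.2 and 11.5 CPM and at 5.74 and 6.86 CPM. Neither passed.

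Promoter sequences from RefSeq (GRCm38.p6) were searched for the letters TTCNNNGAA, the form of site that STAT5 binds, which reads the same on both strands. The window ran from 250 bases before to 50 bases after each start. A match was present in 8.30% of 32851 promoters, in 8.30% of the 10294 tested genes with a promoter in the table, in 7.57% of 185 genes that rose and in 8.11% of 111 that fell. Among called genes of the sex-biased and growth hormone lists, Bcl6 and Slc22a26 had one. The 250 bases before a start are shown for both, 5′ to 3′ on the minus strand, with matches in capitals. Of 2 Bcl6 starts in the table, the one with more matches is shown. It is chr16:23981284-23981533, inside the gene model given above, and held 3. The other, chr16:23988853-23989102, lies directly before that model and held 1. The Slc22a26 sequence is chr19:7802668-7802917.
Bcl6: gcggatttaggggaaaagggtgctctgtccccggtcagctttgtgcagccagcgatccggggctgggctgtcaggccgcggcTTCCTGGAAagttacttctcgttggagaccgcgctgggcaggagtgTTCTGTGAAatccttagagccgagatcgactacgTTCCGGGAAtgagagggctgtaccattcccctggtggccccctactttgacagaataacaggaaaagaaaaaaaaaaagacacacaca
Slc22a26: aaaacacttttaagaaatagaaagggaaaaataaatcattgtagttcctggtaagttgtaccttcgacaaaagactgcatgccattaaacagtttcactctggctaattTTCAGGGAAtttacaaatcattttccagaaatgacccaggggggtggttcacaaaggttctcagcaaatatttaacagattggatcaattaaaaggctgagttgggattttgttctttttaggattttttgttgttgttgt
A match is a description of the letters and was not tested for binding.

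Several drug-metabolising enzymes rose. Of 28 tested genes of the CAR and PXR list, 13 rose and none fell, with a median log2 fold change of 2.04. The list was drawn up mainly from targets of these nuclear receptors that oxidise or conjugate foreign compounds, along with the receptors themselves and Cyp1a1. Without Elf4-/--EtOH replicate 1, 11 of the 28 were called and the median was 1.44, and without either Elf4-/--Control library 1 was. In both of the latter fits that gene was Cyp2b9, which is also in the female-biased list, as are Cyp2b13 and Cyp2a4. Ephx1 is counted again in the NRF2 list and Aldh1a1 in the ethanol list. Cyp3a11, the main PXR target of mouse liver, rose from 719 and 674 to 3642 and 4264 CPM, which is 2.51 ± 0.33 (SE) as a log2 fold change, at an adjusted p of 0.00972 in edgeR. The EtOH values of this gene were close to each other and far above both controls. Cyp2a5 went from 514 and 718 to 5383 and 2557 CPM, Cyp2c29 from 69.1 and 93.2 to 2076 and 436 CPM and Cyp1a1, the classical target of the aryl hydrocarbon receptor, from 2.97 and 3.43 to 56.0 and 23.8 CPM. Without Elf4-/--EtOH replicate 1 their log2 fold changes of 2.69, 3.95 and 3.64 were 2.05, 2.43 and 2.90. Ephx1, the microsomal epoxide hydrolase, rose from 92.9 and 106 to 536 and 335 CPM. The transporter Abcc4, which exports bile acids and conjugates across the basolateral membrane, is counted in the bile acid list and not in this one. It rose from 0.410 and 0.746 to 49.7 and 10.1 CPM, a log2 fold change of 5.71, or 4.16 without Elf4-/--EtOH replicate 1. Cyp2b10, the best known CAR target, did not pass. It stood at 0.102 and 0.298 CPM in the controls, at 260 CPM in Elf4-/--EtOH replicate 1 and at 1.73 CPM in replicate 2 (edgeR adjusted p = 0.0583). Genes of the Cyp2a, Cyp2b, Cyp2c and Ugt1a families share sequence or exons, and reads could have been divided among members.

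Glutathione S-transferases, which conjugate electrophiles to glutathione, showed the same direction. Of 21 tested, 9 rose and none fell, and 5 were called without Elf4-/--EtOH replicate 1 but none without either Elf4-/--Control library. Gsta2 rose from 6.46 and 6.41 to 406 and 82.7 CPM, by 5.24 ± 0.68 (SE) on the log2 scale at an adjusted p of 0.00972 in edgeR, or by 3.68 without Elf4-/--EtOH replicate 1. Gsta4, which detoxifies the lipid peroxidation product 4-hydroxynonenal, rose from 19.5 and 21.8 to 179 and 102 CPM. Gstm1, the most abundant of those that rose, went from 858 and 1173 to 8646 and 2865 CPM, a log2 fold change of 2.50 that was 1.496 without Elf4-/--EtOH replicate 1. Gstm3 went from 12.8 and 22.1 CPM to 1324 and 133 CPM, so the EtOH livers lay far apart from each other as well as from the controls, and its log2 fold change of 5.39 was 2.94 without replicate 1. In Gsta1 the dependence was larger, at 6.501 and, without replicate 1, 3.18. Gsta1, Gsta2 and Gm3776 are close copies, and Gm3776 had 1 count in each control library, at least 62.2-fold higher under EtOH, or at least 5.46-fold without Elf4-/--EtOH replicate 1.

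Of 23 tested targets of NRF2, the regulator of antioxidant genes, 6 rose and none fell, with a median log2 fold change of 0.74. When Elf4-/--EtOH replicate 1 was left out, 3 were called and the median was 0.48, and without either Elf4-/--Control library none was. Nqo1, a quinone reductase, rose from 3.18 and 2.69 to 52.0 and 14.1 CPM, which is 3.47 ± 0.57 (SE) as a log2 fold change, at an adjusted p of 0.0192 in edgeR, or 2.24 without Elf4-/--EtOH replicate 1. Srxn1, which restores oxidised peroxiredoxins, rose from 17.7 and 19.2 to 94.0 and 42.9 CPM, and Gsr, glutathione reductase, from 35.5 and 33.4 to 108 and 58.0 CPM. Prdx1, a peroxide-reducing enzyme, rose from 266 and 286 to 1074 and 705 CPM. Of the 6 genes its values in the EtOH livers were the closest to each other, and it stayed at a log2 fold change of 1.35 without Elf4-/--EtOH replicate 1, against 1.69. The core letters of the antioxidant response element, TGACNNNGC on either strand, were in 12.4% of all promoters, in 16.7% of the tested genes, in 13.0% of genes that rose and in 17.1% of genes that fell. In the NRF2 list, 7 of 20 genes with a promoter held a match, Prdx1 and Srxn1 among the called ones. The 250 bases before the start of Prdx1, at chr4:116685349-116685598 on the plus strand, are shown because of that, with the match on the opposite strand in capitals.
Prdx1: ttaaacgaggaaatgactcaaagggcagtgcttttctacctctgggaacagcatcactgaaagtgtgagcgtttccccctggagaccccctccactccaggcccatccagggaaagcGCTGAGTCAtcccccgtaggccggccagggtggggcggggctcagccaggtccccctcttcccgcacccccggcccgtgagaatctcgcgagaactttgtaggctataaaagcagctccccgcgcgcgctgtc

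**Figure D2:**
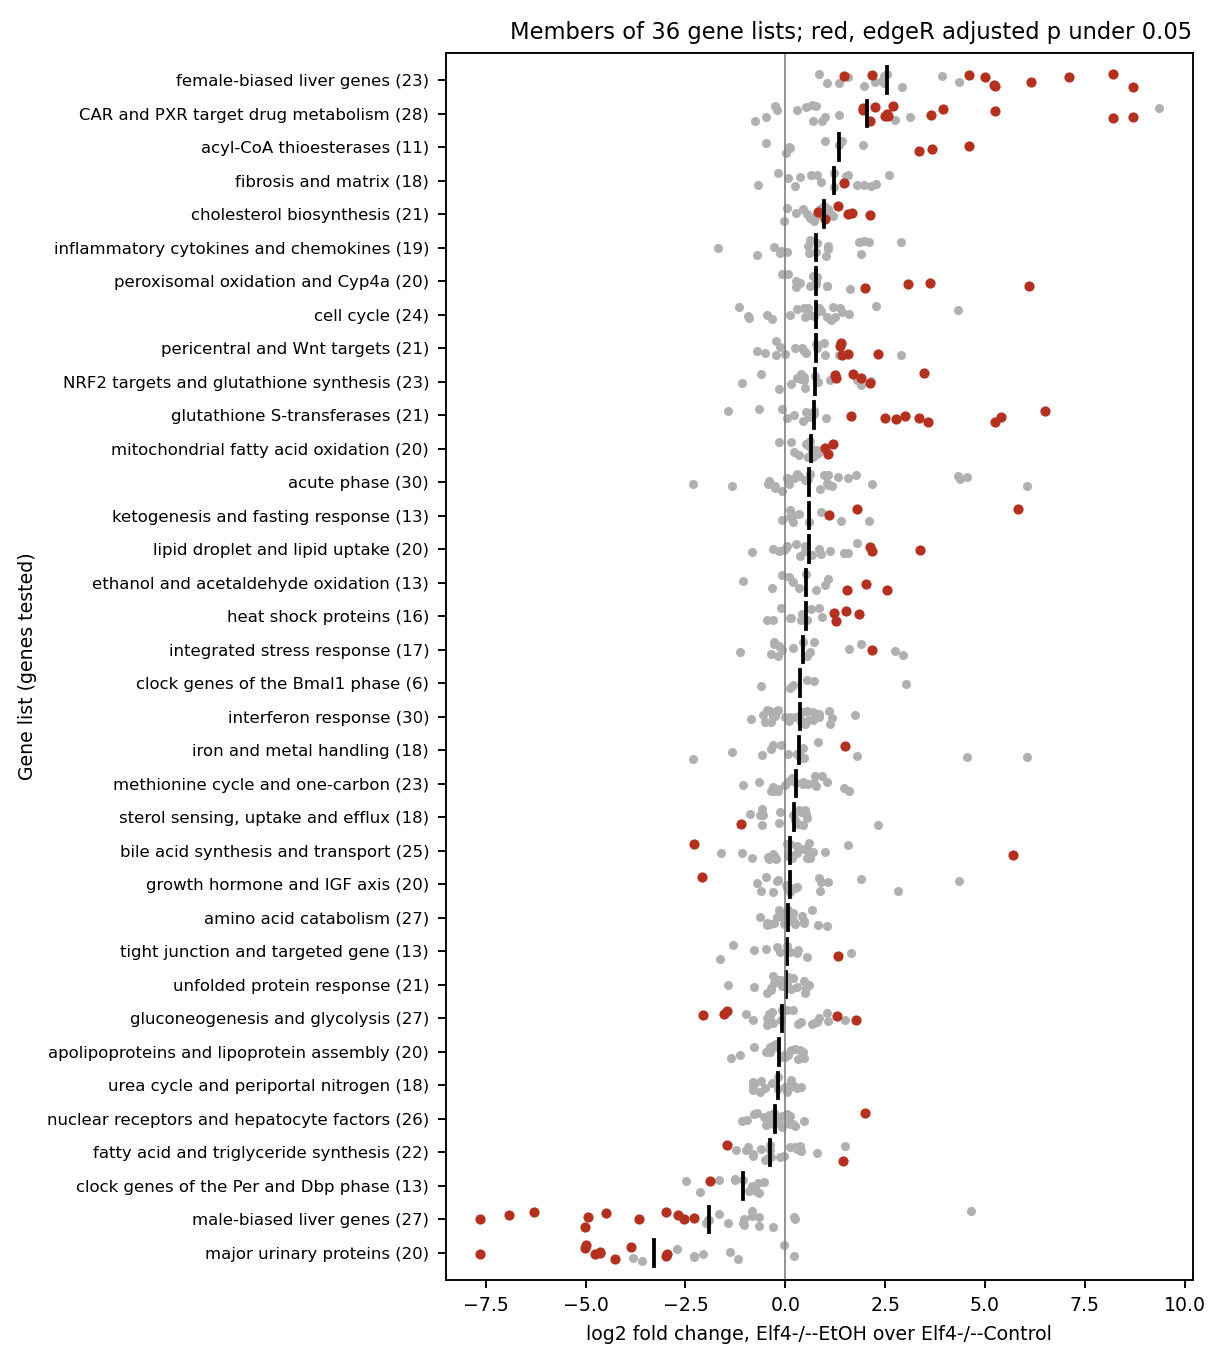
Log2 fold change of Elf4-/--EtOH over Elf4-/--Control for each tested member of 36 gene lists, ordered by the list's median (black bar). Red points passed the edgeR test and grey points did not, and the number of tested genes stands in brackets. Female-biased genes (median 2.55) and drug metabolism genes (median 2.04) lie at the top, and male-biased genes (−1.92) and major urinary proteins (−3.29) at the bottom.

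Some genes of fatty acid oxidation rose, in mitochondria and in peroxisomes. In mitochondria, 3 of 20 tested genes passed and 19 of 20 had higher fitted values, with a median log2 fold change of 0.63. Acads, the short-chain acyl-CoA dehydrogenase, rose from 32.7 and 33.3 to 76.0 and 63.0 CPM (1.07 ± 0.18 SE in log2 fold change, edgeR adjusted p = 0.0224). Etfdh, which passes electrons from the dehydrogenases to ubiquinone, rose from 46.8 and 48.5 to 135 and 82.3 CPM, and Decr1, needed for unsaturated fatty acids, from 80.8 and 84.4 to 170 and 158 CPM. Without Elf4-/--EtOH replicate 1 the median of the list was 0.59 and 1 member was called, and without either Elf4-/--Control library none was. In peroxisomes and the Cyp4a family, 4 of 20 rose. Cyp4a10, a fatty acid omega-hydroxylase induced by PPARα, rose from 106 and 86.7 to 1563 and 826 CPM, which is 3.63 ± 0.35 (SE) as a log2 fold change, at an adjusted p of 0.00197 in edgeR. Cyp4a14 went from 56.6 and 20.4 to 4362 and 968 CPM, and Ehhadh, the peroxisomal bifunctional enzyme, from 80.2 and 64.7 to 953 and 270 CPM. Hacl1, which shortens branched and hydroxylated fatty acids, was the only one of the 4 with its higher EtOH value in replicate 2, at 6.15 and 6.41 against 19.9 and 29.98 CPM. These 4 genes were called without Elf4-/--EtOH replicate 1 as well, with log2 fold changes of 4.64 against 6.11 for Cyp4a14 and 1.90 against 3.08 for Ehhadh. Without Elf4-/--Control replicate 1 only Cyp4a10 of the 4 was called, and without replicate 2 none was.

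Acyl-CoA thioesterases, which release free fatty acids from CoA, had 3 of 11 members higher and none lower. Acot3, a peroxisomal member (chromosome 12, 84052144 to 84060402, plus strand), rose from 4.20 and 3.88 to 97.5 and 98.7 CPM, which is 4.59 ± 0.34 (SE) as a log2 fold change, at an adjusted p of 0.000714 in edgeR. It was among the steadiest changes in the data, with 4.54 to 4.65 when single libraries were left out. Acot1, the cytosolic member next to it (84009490 to 84018371), rose from 4.71 and 8.50 to 86.7 and 45.4 CPM, and Acot2, the mitochondrial member, from 2.56 and 0.746 to 29.0 and 16.6 CPM. Without Elf4-/--Control replicate 1 only Acot3 of the 3 was called, and without replicate 2 Acot1 and Acot3 were. Acot2 had a log2 fold change of 4.89 without Elf4-/--Control replicate 1, against 3.68. Acot4 stood at 84.8 and 54.9 CPM in the controls and 202 and 155 CPM under EtOH and did not pass (edgeR adjusted p = 0.0563). These genes are tandem copies, and in the annotation Acot3 and Acot4 share exons with a read-through gene model.

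A few genes of the fasting response and of lipid storage rose, none of which was called without either Elf4-/--Control library. Of 13 tested ketogenesis and fasting genes, 3 rose and none fell, and Ucp2 was the 1 called without Elf4-/--EtOH replicate 1. Ucp2 rose from 22.04 and 18.9 to 85.1 and 57.5 CPM and Pdk4, which restrains pyruvate oxidation, from 3.18 and 0.448 to 219 and 8.36 CPM. The rise of Pdk4 was set by 1 liver, with a log2 fold change of 5.84 that was 2.06 without Elf4-/--EtOH replicate 1. Of 20 lipid droplet and lipid uptake genes, 3 rose and none fell, 2 of them called without Elf4-/--EtOH replicate 1, when the median log2 fold change of the list was 0.24 against 0.59. Plin2, a coat protein of lipid droplets, rose from 110 and 98.9 to 560 and 355 CPM (2.13 ± 0.27 SE in log2 fold change, edgeR adjusted p = 0.00972), Cd36, a fatty acid transporter, from 5.64 and 6.26 to 85.8 and 38.7 CPM, and Vldlr, a lipoprotein receptor, from 3.69 and 1.79 to 16.6 and 9.15 CPM. Pparg, a nuclear receptor that promotes lipid storage, rose from 2.56 and 4.33 to 10.04 and 17.0 CPM and was the only one of 26 tested nuclear receptors and hepatocyte factors to pass.

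Fatty acid and triglyceride synthesis showed no common direction, with 1 gene higher and 1 lower among 22 tested and a median of −0.37. The median was 0.08 without Elf4-/--EtOH replicate 1. Acacb, the mitochondrial acetyl-CoA carboxylase whose product inhibits fatty acid import, rose from 88.0 and 55.3 to 218 and 173 CPM. Its cytosolic counterpart Acaca, which supplies synthesis, stood at 104 and 93.4 CPM in the controls and 53.4 and 58.2 CPM under EtOH (edgeR adjusted p = 0.0543). Pklr, liver pyruvate kinase, fell from 325 and 267 to 77.3 and 138 CPM. The overlapping gene Hcn3, on the opposite strand, had nearly the same values, 340 and 299 against 77.0 and 150 CPM, so reads of the pair cannot be told apart when counting ignores strand. Srebf1, the master regulator of lipid synthesis, stood at 364 and 286 CPM in the controls, 46.7 CPM in Elf4-/--EtOH replicate 1 and 230 CPM in replicate 2, and did not pass. Fasn likewise differed between the EtOH livers, at 169 and 619 CPM, with controls at 722 and 339 CPM.

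Enzymes that handle ethanol itself changed in part. Of 13 tested genes of ethanol and acetaldehyde oxidation, 3 rose and none fell. Aldh1a1, a cytosolic aldehyde dehydrogenase that also makes retinoic acid, rose from 248 and 319 to 2416 and 872 CPM, which is 2.54 ± 0.44 (SE) as a log2 fold change, at an adjusted p of 0.0231 in edgeR, or 1.62 without Elf4-/--EtOH replicate 1. It was the 1 gene of the list called without that library, and none was without either Elf4-/--Control library. Acss3 rose from 21.6 and 16.1 to 101 and 53.6 CPM and Aldh1a7 from 68.8 and 92.9 to 308 and 163 CPM. The enzymes best known for ethanol had smaller differences that did not pass. Adh1, the main alcohol dehydrogenase, stood at 1010 and 1134 CPM in the controls and 2000 and 2272 CPM under EtOH (edgeR adjusted p = 0.0783), and Cyp2e1 at 2434 and 2803 against 4250 and 4604 CPM (edgeR adjusted p = 0.175). Values of Aldh2, the mitochondrial enzyme that clears acetaldehyde, were 892 and 1053 CPM against 1573 and 1212 CPM (edgeR adjusted p = 0.281). Catalase transcripts were 1794 and 2414 CPM against 2061 and 2424 CPM.

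Cholesterol biosynthesis had 6 of 21 tested genes higher and none lower. Msmo1 rose from 100 and 107 to 440 and 222 CPM (1.68 ± 0.30 SE in log2 fold change, edgeR adjusted p = 0.0254), Cyp51, the lanosterol demethylase, from 72.0 and 57.9 to 263 and 126 CPM, Idi1 from 3.18 and 2.39 to 17.5 and 7.16 CPM and Fdft1, squalene synthase, from 99.3 and 78.3 to 196 and 158 CPM. Hsd17b7 and Acat2 were the others. The count was 1 without Elf4-/--EtOH replicate 1 and 0 without either Elf4-/--Control library, while the median log2 fold change of 0.96 lay between 0.62 and 1.09 in these 3 fits and in the one without Elf4-/--EtOH replicate 2. Of the genes that sense and move sterols, Abcg5, which exports sterols into bile, fell from 345 and 388 to 203 and 139 CPM, and Insig2, a brake on the pathway, stood at 38.1 and 40.3 CPM against 340 and 53.7 CPM and did not pass.

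Carbohydrate genes split. Of 27 tested, Pgk1 rose from 32.3 and 30.3 to 137 and 77.3 CPM and Tpi1 from 90.9 and 99.9 to 278 and 193 CPM, both enzymes shared by glycolysis and gluconeogenesis, whereas Pfkfb3, which drives glycolysis, fell from 28.0 and 49.7 to 5.74 and 12.7 CPM and Gys2, liver glycogen synthase, from 467 and 462 to 96.1 and 226 CPM, with Pklr the third to fall. Of these 5 genes, only Pfkfb3 was called without Elf4-/--EtOH replicate 1 and none without either Elf4-/--Control library. Clock genes that peak with Per and Dbp all had lower fitted values under EtOH, 13 of 13, each with an unadjusted p under 0.05 in edgeR, but only Nr1d1, the repressor REV-ERBα, passed, from 131 and 77.0 to 20.9 and 34.9 CPM. It shares exon sequence with Thra on the opposite strand, whose log2 fold change was −1.79, and reads of this pair may be mixed too. Dbp, an output activator, stood at 340 and 295 CPM against 19.8 and 92.3 CPM (edgeR adjusted p = 0.0810) and Tef at 459 and 437 against 146 and 226 CPM (edgeR adjusted p = 0.0502). The hour at which each liver was taken is not given in the sources used here, and its part in these values was not tested.

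Genes of the pericentral zone, the hepatocytes around the central vein where ethanol is mostly oxidised, had 5 of 21 tested members higher and none lower. Oat, ornithine aminotransferase, rose from 494 and 567 to 3490 and 1830 CPM, which is 2.33 ± 0.35 (SE) as a log2 fold change, at an adjusted p of 0.0162 in edgeR, and Glul, glutamine synthetase, from 730 and 767 to 2614 and 1848 CPM. Lhpp, Lect2 and Slc13a3 were the others, and Oat and Glul were the 2 still called without Elf4-/--EtOH replicate 1, while none of the 5 was without either Elf4-/--Control library. None of 18 tested genes of the urea cycle and periportal nitrogen handling passed (edgeR, 4 with an unadjusted p under 0.05, and none by DESeq2 in the higher direction but 3 in the lower). Arg1, arginase, stood at 1497 and 1849 CPM against 1091 and 813 CPM. Amino acid catabolism had 0 of 27 past the threshold in edgeR and in DESeq2, and 2 with an unadjusted p under 0.05.

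Stress genes were divided by type. Of 16 tested heat shock proteins, 4 rose and none fell. Hsp90aa1 rose from 120 and 112 to 424 and 240 CPM, Hspb1 from 13.2 and 17.0 to 78.3 and 30.5 CPM and the mitochondrial chaperones Hspd1 and Hspe1 from 124 and 130 to 351 and 236 CPM and from 83.2 and 87.1 to 247 and 163 CPM. Hspd1 and Hspe1 are divergent neighbours whose models overlap. No heat shock gene was called without Elf4-/--EtOH replicate 1 or without either Elf4-/--Control library, although the median log2 fold change of 0.51 was then 0.60. None of 21 tested genes of the unfolded protein response passed in edgeR or DESeq2, with 4 at an unadjusted p under 0.05 in edgeR. In the integrated stress response 1 of 17 passed, Vldlr, which is also counted among lipid uptake genes and among female-biased genes.

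Acute phase genes, which hepatocytes secrete in inflammation, were high in 1 of the 2 alcohol-fed livers. None of 30 passed in edgeR (13 had an unadjusted p under 0.05, and DESeq2 called 6 higher and 1 lower). Lcn2, which binds bacterial siderophores, stood at 3.38 and 3.58 CPM in the controls, at 138 CPM in Elf4-/--EtOH replicate 1 and at 6.501 CPM in replicate 2, and Orm3 at 1.54 and 4.62, then 112 and 7.03 CPM. C3, the central complement component, was closer between livers, at 1398 and 1702 against 2882 and 3568 CPM (edgeR adjusted p = 0.0669). The list's median log2 fold change of 0.60 was −0.05 without replicate 1. Inflammatory cytokines and chemokines had 0 of 19 past the threshold in edgeR (6 with an unadjusted p under 0.05, and DESeq2 called 2), with Cxcl10 at 4.20 and 1.64 against 14.5 and 7.96 CPM. Il1b was at 1.74 and 0.597 against 2.55 and 1.19 CPM, and Ccl2 at 0.922 and 0 against 8.13 and 0 CPM. Tnf, with 1 and 1 against 7 and 2 counts, and Il10, with 1 and 0 against 9 and 2 counts, were too low to test, and a change was not detectable at this depth. Interferon response genes had 0 of 30 past the threshold in edgeR and in DESeq2, and 9 with an unadjusted p under 0.05 in edgeR, against 21.2% of all genes.

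Of 18 tested fibrosis and matrix genes, 1 rose, Timp3, an inhibitor of metalloproteinases, from 19.8 and 18.8 to 70.1 and 37.0 CPM. Acta2, smooth muscle actin of activated stellate cells, stood at 1.33 and 0.448 against 4.62 and 2.79 CPM and did not pass (edgeR adjusted p = 0.175). The median of the list was 1.22, and 0.21 without Elf4-/--EtOH replicate 1. Of 24 cell cycle genes none passed in edgeR (8 had an unadjusted p under 0.05, and DESeq2 called 1), and the median of 0.77 was 0.01 without that library. Tight junction genes had Cldn2, a pore-forming claudin, higher, from 17.0 and 12.2 to 35.1 and 37.8 CPM. Ocln was at 22.4 and 11.3 against 6.70 and 7.03 CPM (edgeR adjusted p = 0.0629) and Tjp1 at 42.9 and 37.9 against 37.0 and 33.6 CPM (edgeR adjusted p = 0.609). Tfrc, the transferrin receptor, was the 1 of 18 iron and metal genes to pass, from 23.2 and 16.3 to 68.5 and 43.2 CPM.

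The 2 alcohol-fed livers were further compared with each other, as a description. Median changes from the control mean were 1.75 in replicate 1 and 1.26 in replicate 2 among the 239 genes that rose, on the log2 scale, and −1.54 and −1.28 among the 165 that fell. Replicate 1 lay further out in 213 of the 239 and in 116 of the 165. The genes that set the pair apart most, chosen after their values were seen, included the metal-binding metallothionein Mt2, at 2.25 and 8.65 CPM in the controls and 702 and 1.46 CPM under EtOH, and Mt1, at 11.9 and 33.7, then 1059 and 7.56 CPM. Mt2 shares exon sequence with the antisense gene Gm45774, at 1169 and 3.58 CPM under EtOH. Igfbp1, a fasting and stress-induced secreted protein, stood at 33.9 and 29.1 CPM in the controls and at 437 and 11.5 CPM under EtOH. Cyp17a1, a member of the female-biased list, stood at 6.87 and 16.0, then 122 and 3.58 CPM. Cdkn1a, the p21 cell cycle inhibitor, stood at 0.513 and 1.94, then 45.1 and 1.19 CPM. Lower in replicate 1 were Hamp, the iron hormone hepcidin, at 11.5 and 318 CPM with controls at 685 and 955 CPM, Cyp4a12a, a male-biased omega-hydroxylase, at 3.83 and 138 CPM with controls at 224 and 338 CPM, and Angptl8, a feeding-induced inhibitor of lipoprotein lipase, at 9.25 and 264 CPM with controls at 91.6 and 57.4 CPM. None of these passed the test. In Mt1 and Mt2 the sign of the diet difference changed without replicate 1. Igfbp1 and Cyp17a1 were likewise below both controls in replicate 2, and Angptl8 was above both controls in replicate 2 but below both in replicate 1.

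**Figure D3:**
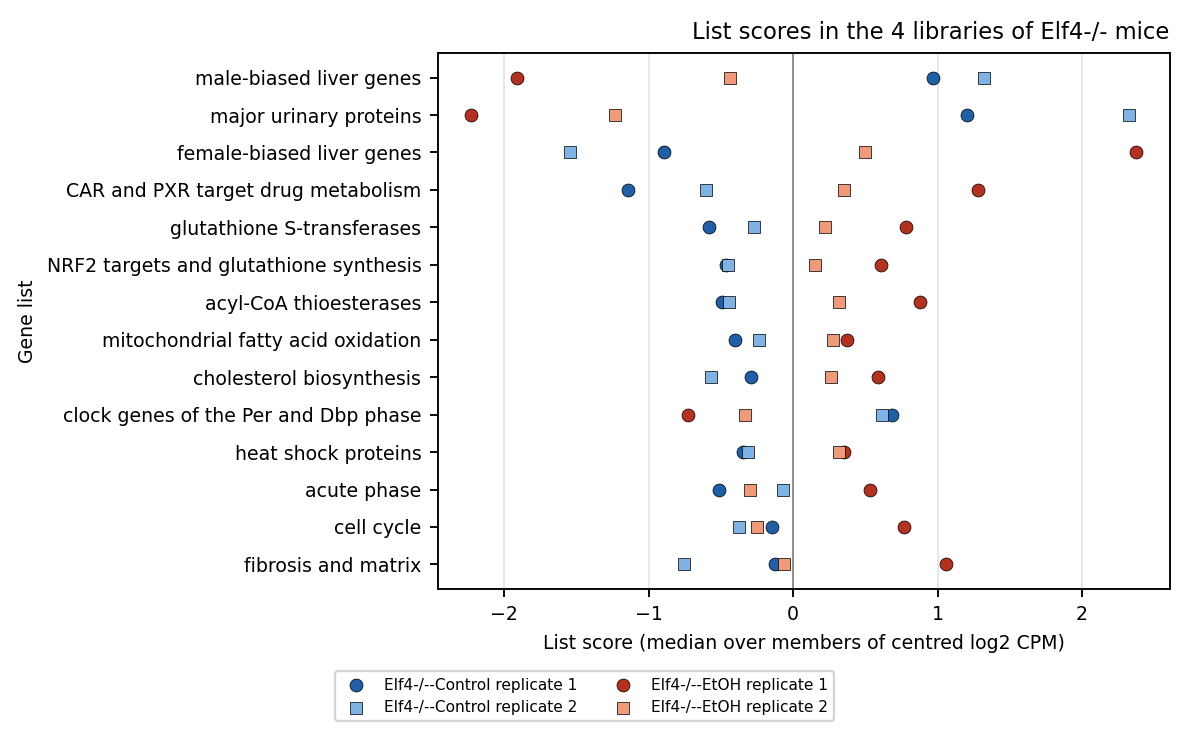
List scores in the 4 libraries, where a score is the median over members of log2 CPM after each gene is centred on its mean over the 4 libraries. From male-biased genes down to heat shock proteins, both EtOH livers (red) lie on one side of 0 and both control livers (blue) on the other. Acute phase, cell cycle and fibrosis are high in Elf4-/--EtOH replicate 1 (0.54, 0.77 and 1.06) and near the controls in replicate 2 (−0.30, −0.25 and −0.06).

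Markers of other cell types were summed per library. In bulk liver, more cells of a type and more RNA per cell cannot be told apart. Of 12 Kupffer cell markers, all 12 were tested and 2 rose, Marco, a scavenger receptor, from 4.31 and 1.79 to 28.5 and 16.2 CPM and C1qb from 13.0 and 11.6 to 29.2 and 21.9 CPM. All 12 had higher fitted values under EtOH, and 8 had an unadjusted p under 0.05 in edgeR. Among the smallest differences were those of the defining markers Clec4f (89.4 and 93.2 against 96.0 and 92.7 CPM) and Timd4 (5.64 and 6.41 against 5.10 and 7.56 CPM). Summed Kupffer cell markers were 232 and 222 CPM in the controls and 353 and 313 CPM under EtOH, and summed stellate cell markers were 242 and 210 against 475 and 316 CPM. Endothelial markers summed to 239 and 264 against 393 and 248 CPM and neutrophil markers, of which 6 of 11 were in the table and 3 were tested, to 1.44 and 1.79 against 15.6 and 2.12 CPM, high in Elf4-/--EtOH replicate 1 only, the liver that also carried the acute phase, fibrosis and cell cycle values. The part of cell composition in those lists was not tested. Of 10 intestinal epithelium markers, 4 were tested and Tff3 fell, from 9.22 and 9.99 to 0.159 and 0 CPM.

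**Figure D4:**
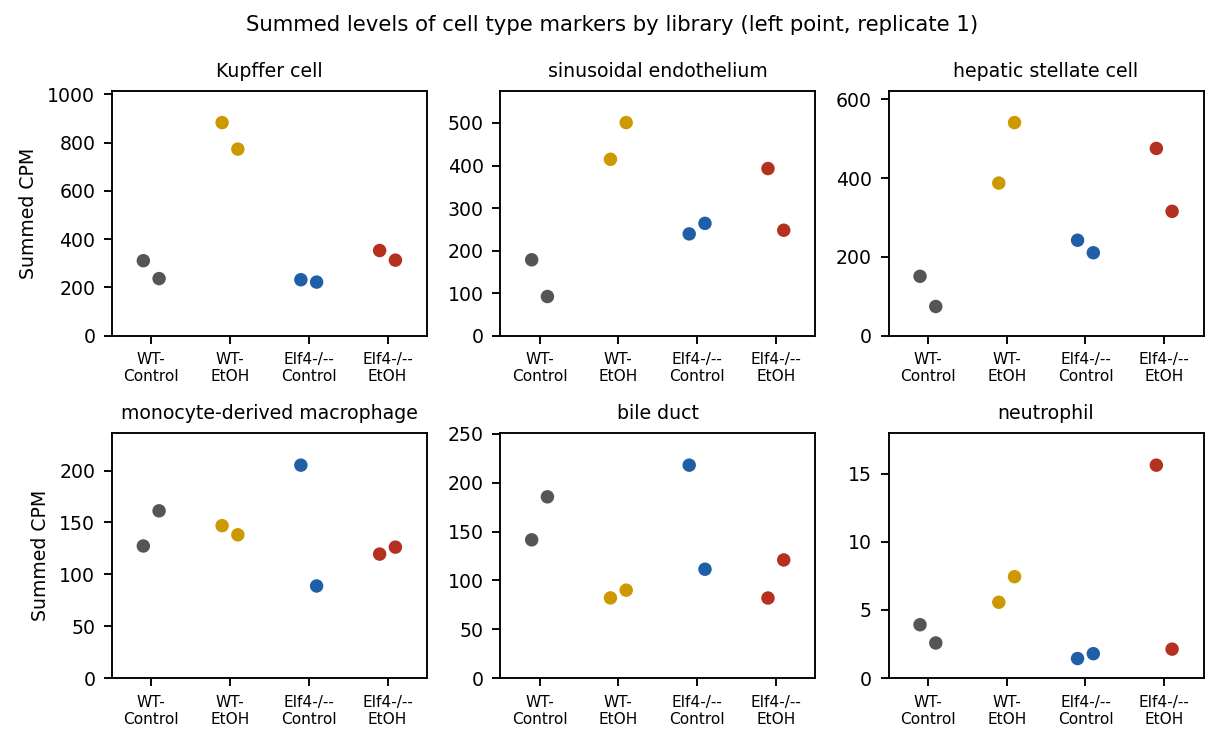
Summed CPM of the markers of 6 cell types in each of the 8 libraries, with replicate 1 to the left and replicate 2 to the right in each group and each vertical axis starting at 0. Kupffer cell markers rise to 883 and 773 CPM in WT-EtOH and to 353 and 313 CPM in Elf4-/--EtOH, and neutrophil markers are highest in Elf4-/--EtOH replicate 1 at 15.6 CPM.

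The same diet in WT mice gave more calls, with 1518 genes higher and 1507 lower, each 10.8% of the genes tested. Mitochondrial genes took up 33.7% and 23.4% of counts in WT-Control, but 12.5% and 10.8% in WT-EtOH. The TMM scaling factors of these libraries were 0.841 and 0.882, then 1.13 and 1.19. Every Elf4-/- library lay between 18.3% and 22.1%, with a factor from 0.955 to 1.07. What part the mitochondrial share had in the WT calls and in the comparison of genotypes was not tested. The diet contrasts of the genotypes share no library but share the estimate of the spread. Of the 239 genes that rose in Elf4-/- mice, 197 also rose in WT mice, and of the 165 that fell, 142 also fell. The median log2 fold changes over these genes were 1.56 in Elf4-/- and 1.62 in WT for the 239, and −1.41 and −1.48 for the 165. A further 41 higher and 23 lower genes were not called in WT, which does not show that the genotypes differ in them. The difference itself was tested as the interaction of genotype and diet, and no gene passed in edgeR (smallest adjusted p = 0.108). At an unadjusted p under 0.05 there were 691 genes with the higher value in Elf4-/- and 720 with the lower, together 10.1% of all genes, and DESeq2 called 83 and 28. Without Elf4-/--EtOH replicate 1, edgeR called 62 genes, and without replicate 2 it called 139.

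Over all genes, the interaction p was smallest for Sqle of the cholesterol list, with log2 fold changes of 0.98 in Elf4-/- and −2.29 in WT. Isg15 of the interferon list followed, at 0.70 and −2.39. Neither gene was called in Elf4-/- mice, and the adjusted interaction p in edgeR was 0.108 for both. Among genes called in Elf4-/- mice, the 2 with the smallest interaction p from a named list were thioesterases. The log2 fold change of Acot3 was 4.59 in Elf4-/- and 8.68 in WT, and that of Acot1 was 3.34 and 7.43, each an interaction of −4.09 (edgeR unadjusted p = 6.43e-05 and 6.39e-05, adjusted p = 0.129 for both). Tlcd2, a membrane protein gene that shares exons with the host gene of the microRNA Mir22 (chromosome 11, 75461715 to 75470899, plus strand), was the only gene called in opposite directions. It rose from 35.9 and 41.8 to 103 and 71.1 CPM in Elf4-/- mice, a log2 fold change of 1.16, and fell by 1.03 in WT mice (interaction 2.20, edgeR unadjusted p = 0.000105, adjusted p = 0.163). Cholesterol genes had medians of 0.96 in Elf4-/- and −0.51 in WT, and 16 of 21 had an unadjusted interaction p under 0.05. Msmo1 was at 1.68 and −0.67. The urea cycle list had 9 of 18 genes lower in WT and none in Elf4-/-, with medians of −1.37 and −0.19, and 9 with an unadjusted interaction p under 0.05. Slc38a3, a glutamine transporter of periportal cells, was at −0.80 in Elf4-/- and −2.07 in WT. Interferon response genes had medians of 0.37 in Elf4-/- and −0.43 in WT, and acute phase genes 0.60 and −0.38. Each of these lists had 9 of 30 genes with an unadjusted interaction p under 0.05. The acute phase median in Elf4-/- rested on Elf4-/--EtOH replicate 1, as given above. Kupffer cell markers were called higher for 12 of 12 genes in WT, with a median of 1.95 against 0.79 in Elf4-/-, and endothelial markers for 9 of 10, with 2.38 against 0.60. In the Kupffer list 9 of 12 and in the endothelial list 7 of 10 had an unadjusted interaction p under 0.05, and none of these lists had a gene past the adjusted threshold in edgeR.

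**Figure D5:**
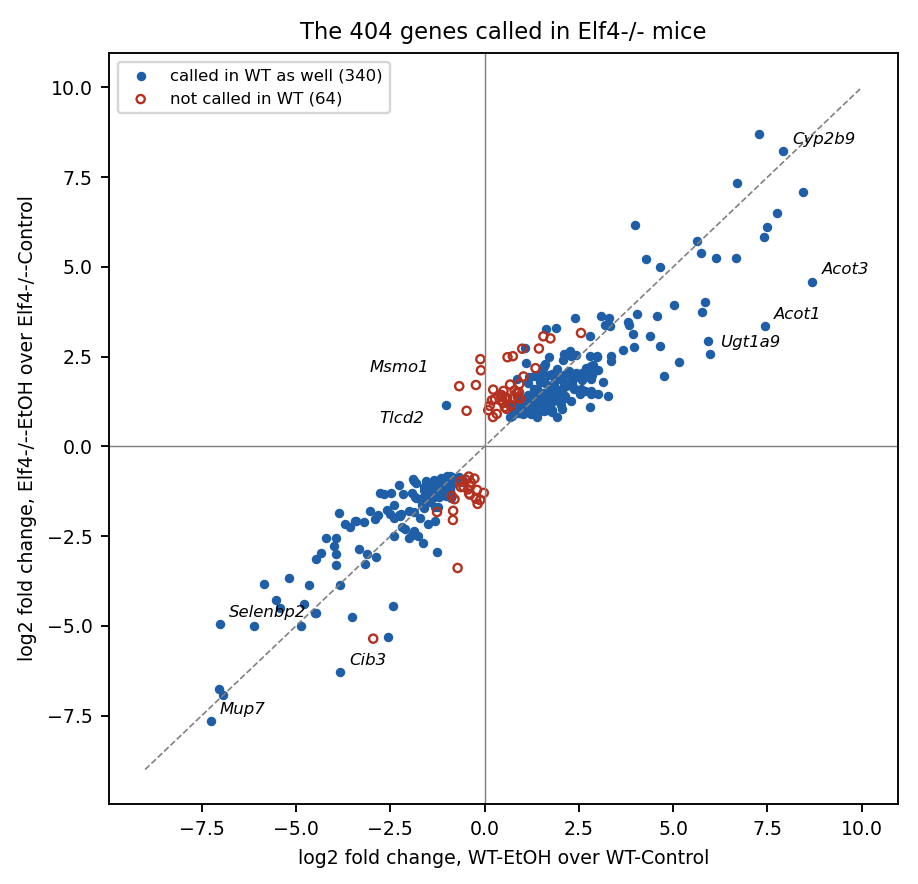
Log2 fold changes under the alcohol diet in WT (horizontal) and Elf4-/- (vertical) livers for the 404 genes called in Elf4-/- mice, with the line of equal change dashed. Filled points were called in WT as well (340) and open points were not (64). Most points lie near the line, Acot1 and Acot3 lie below it at 3.34 and 4.59 against 7.43 and 8.68, and Tlcd2 lies alone among the filled points in the upper left quadrant.

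Several genes called in Elf4-/- mice outside the lists had small changes in WT, and these were chosen after their values were seen. A gap between the genotypes is therefore built into the choice, and none of them passed the interaction test in edgeR after adjustment. Ddc, aromatic amino acid decarboxylase, rose from 6.77 and 8.06 to 52.4 and 30.4 CPM, a log2 fold change of 2.48 against 0.61 in WT. The unadjusted p of its interaction in edgeR was 0.00113, and 0.230 after adjustment. Actg1, cytoplasmic actin, rose from 15.8 and 13.0 to 113 and 51.6 CPM (2.51 against 0.75), Krt8, a keratin of hepatocytes, from 103 and 112 to 253 and 180 CPM (1.01 against 0.10), and Tuba1c, a tubulin, from 30.8 and 30.7 to 81.6 and 67.9 CPM (1.28 against 0.42). Cyp26a1, which degrades retinoic acid, rose from 5.23 and 11.2 to 63.0 and 24.2 CPM (2.43 against −0.11). Of 404 called genes, 97 were members of at least 1 of the 36 lists and 307 were not.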

How the data were processed

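RNA of mouse liver was sequenced as paired-end reads in 8 libraries. Per the study's methods, the authors checked reads with FastQC, mapped them to mm10 with HISAT2, sorted alignments (SAMtools), and obtained gene counts from HTSeq, and tested them with DESeq2. Versions, annotation and strand setting are not given in the sources used here, so reads of overlapping or near-identical genes may be shared or lost. The deposited table holds whole-number counts per gene symbol, not normalized, with 1 column per library. 968 blank rows and 2 empty columns were left out.

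Genes were kept with filterByExpr by group and scaled by TMM. All 8 libraries entered 1 model of 4 groups in edgeR 4.0.16 (R 4.3.3), with a common biological coefficient of variation of 22.7%, and contrasts were tested by quasi-likelihood with Benjamini-Hochberg adjustment over 13993 genes at 0.05. SE is the fold change divided by the root of the F statistic. Log2 CPM used a prior count of 2. Genes with at most 3 counts in each library of a group were taken as at the floor, and bounds cover counting error only. Fold changes and called members are given per list, with no test of a list. Positions come from GENCODE M21 (GRCm38) and promoters from RefSeq (GRCm38.p6). The code was checked on simulated counts.

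The members and lists were chosen with earlier results of these data known. Named genes were the 12 largest rises and falls among called, non-overlapping genes averaging 50 counts or more, all called members and at least 4 members of each list by p, genes the study measured, and genes called in opposite directions in WT. Genes named outside this rule (Adh1, Aldh2, catalase, Ces2c, Cyp2b10, Cyp2e1, Fasn, Srebf1, cell type markers, overlapping genes and those set apart in the text) were chosen after their values were seen. Alternatives were DESeq2 1.42.0, its size factors, library totals, other filters, the 4 libraries of a genotype alone, a replicate block and leaving out each library. Some members of the lists are counted but not reported here by name.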

Additional observations from a re-analysis of the deposited data

How the results depend on the processing

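The sign of every gene called in Elf4-/- livers was kept in all alternatives that tested it, but the number of calls was not. For left-out libraries the kept sign was largely fixed beforehand, because the groups did not overlap in any called gene. DESeq2 called 452 higher and 359 lower in Elf4-/-, and 111 for the interaction of genotype and diet. The fit of only the 4 libraries of a genotype called 22 higher and 18 lower. Leaving out single libraries gave 5 to 824 higher and 4 to 859 lower in Elf4-/-, 0 to 139 for the interaction, and 373 to 1922 higher and 253 to 2101 lower in WT. Without the filter on low counts 7 genes were called for the interaction. Scaling by library totals alone gave 3422 higher and 634 lower in WT. A replicate block called 136 higher and 104 lower in Elf4-/-, 233 of them among the 404. Replicates share only a number, since the labels name no shared litter or batch and deviations of same-numbered Elf4-/- libraries correlated at −0.07. In WT that correlation was −0.14, and a block with the WT-EtOH numbers crossed, chosen after seeing the data, called 1483 higher and 1436 lower. The causes were not tested. Among genes named by the rule above, log2 fold changes changed sign when single libraries were left out for 6, none of them called: Ccl2 (−4.99 to 7.81), Cish (−0.46 to 2.73), Gdf15 (−0.061 to 3.85), Il1b (−0.033 to 1.599), Mt1 (−1.57 to 5.54) and Mt2 (−1.81 to 7.27). Genes named outside that rule, such as Fasn, Igfbp1, Cyp17a1 and Angptl8, were not in this check, and their EtOH livers lay on opposite sides of the control mean. The values of Ccl2 rest on groups left with 0 counts and give no size. Against the floor of 3 counts, the group mean of Ccl2 was at least 9.08-fold higher under EtOH without Elf4-/--Control replicate 1. Without Elf4-/--EtOH replicate 1 it was at least 1.16-fold lower. In both cases the mean above the floor was carried by 1 library, as the other library of that group had 0 counts, so neither bound holds for each library. With 2 libraries a group, a group left with 1 library is assumed to vary like the others, and depth limits Tnf, Il10 and other genes under about 1 CPM.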
